A study of Mus musculus with 4 samples.

Results

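Neutrophil granule genes encode the proteins that neutrophils pack into cytoplasmic granules while they mature, and they are grouped here by the stage at which a granule is filled. The set held 10 genes of the 32344 listed in the files, of which 15785 had a unique molecular identifier (UMI, a tag that counts single captured molecules) in a barcode of at least 500 UMIs. The members were found by exact match of the gene symbol: 3 primary granule genes (Mpo, Elane and Prtn3), 4 secondary granule genes (Camp, Ngp, Ltf and Lcn2) and 3 late genes (Mmp8, Mmp9 and Retnlg). The match used names alone, though the members were chosen with earlier results of these data known. All 10 had UMIs in every library.

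Sorted CD45+ liver cells were profiled one by one in 4 libraries, each made from 5 pooled mice. The groups were GS(+/D)Hep (1 library), URI(+/D)Hep (1 library) and WT (2 libraries), where GS is glutamine synthetase, and every group, WT included, had received tamoxifen for 1 week. The submitters call the GS and URI mice knockouts and write the allele as +/D (or +/delta) with Hep, which is not spelled out. The driver of the deletions and the age of the mice were not given in the sources used here, and sorted immune cells do not test a deletion in hepatocytes. Cells came from the interface of a Percoll gradient that the labels describe as mononuclear, so shares of neutrophils are shares of what that step retained.

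Granules form in a fixed sequence during neutrophil development in the bone marrow. Primary (azurophil) granule proteins are made by promyelocytes, secondary (specific) granule proteins by myelocytes and metamyelocytes, and gelatinase granule proteins by later band and segmented cells. Mature neutrophils keep the proteins after most of these messenger RNAs have gone, so a granule transcript reports the stage of a cell rather than its protein content. C/EBP family factors, C/EBP epsilon above all for secondary granules, and PU.1 are known regulators of these genes.

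Camp, Ngp and Ltf, all secondary genes, lie near each other on mouse chromosome 9 (GRCm38.p6, the assembly known as mm10). Camp (109847377 to 109849456) and Ngp (110419808 to 110423012) are 570 kb apart, and Ltf (111019292 to 111042766) follows 596 kb beyond Ngp. Lcn2 lies on chromosome 2 (32384637 to 32387739). Elane (79886312 to 79888216) and Prtn3 (79879667 to 79883174) are 3.137 kb apart on chromosome 10, and Mpo (87793784 to 87804412) is on chromosome 11. Mmp8 (7558429 to 7568486) is on chromosome 9, Mmp9 (164940326 to 164955850) on chromosome 2 and Retnlg (48872608 to 48874498) on chromosome 16.

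The 250 bases upstream of the start of 9 members were read from RefSeq promoters of GRCm38.p6, and 6 are shown because they cover each stage and the members whose levels moved most along maturation. Bases run 5′ to 3′ on the gene's strand. Capitals mark a C/EBP motif searched as TTGCNNAA (TTNNGCAA on the other strand) or a PU.1 motif searched as GAGGAA on both strands.
Mpo, chr11:87793534-87793783, plus strand: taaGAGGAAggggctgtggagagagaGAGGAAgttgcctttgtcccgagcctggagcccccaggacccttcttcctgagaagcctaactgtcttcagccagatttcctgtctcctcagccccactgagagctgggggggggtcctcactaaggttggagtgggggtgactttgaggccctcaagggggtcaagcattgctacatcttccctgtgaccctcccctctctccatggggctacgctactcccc
Camp, chr9:109849457-109849706, minus strand: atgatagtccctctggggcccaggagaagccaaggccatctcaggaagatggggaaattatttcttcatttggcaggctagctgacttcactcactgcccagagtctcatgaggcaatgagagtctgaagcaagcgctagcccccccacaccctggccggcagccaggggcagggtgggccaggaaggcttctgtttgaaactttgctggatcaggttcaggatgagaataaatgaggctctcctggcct
Ngp, chr9:110419558-110419807, plus strand: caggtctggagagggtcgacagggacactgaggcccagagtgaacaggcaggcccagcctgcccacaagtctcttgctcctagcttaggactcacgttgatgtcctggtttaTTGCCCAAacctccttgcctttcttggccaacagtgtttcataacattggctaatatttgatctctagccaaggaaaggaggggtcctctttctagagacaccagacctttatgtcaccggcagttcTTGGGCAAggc
Ltf, chr9:111019042-111019291, plus strand: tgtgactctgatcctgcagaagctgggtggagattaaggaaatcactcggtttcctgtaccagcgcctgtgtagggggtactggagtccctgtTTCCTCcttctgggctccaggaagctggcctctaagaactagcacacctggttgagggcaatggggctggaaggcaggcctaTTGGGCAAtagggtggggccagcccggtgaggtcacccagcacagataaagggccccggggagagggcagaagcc
Lcn2, chr2:32387740-32387989, minus strand: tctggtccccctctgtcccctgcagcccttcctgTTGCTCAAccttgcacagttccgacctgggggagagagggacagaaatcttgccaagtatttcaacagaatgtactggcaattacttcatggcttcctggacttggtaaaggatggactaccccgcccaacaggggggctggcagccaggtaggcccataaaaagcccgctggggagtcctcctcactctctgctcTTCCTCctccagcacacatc
Retnlg, chr16:48872358-48872607, plus strand: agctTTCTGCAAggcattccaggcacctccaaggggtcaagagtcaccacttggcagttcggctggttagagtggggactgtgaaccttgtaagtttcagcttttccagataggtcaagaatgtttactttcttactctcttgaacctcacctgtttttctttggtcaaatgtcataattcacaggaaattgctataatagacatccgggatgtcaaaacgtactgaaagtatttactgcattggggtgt

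The C/EBP letters were present in Ngp (2 matches), Ltf, Lcn2, Mmp8 and Retnlg, and 9.57% of 32526 promoter windows of the same length held them. They were not in the windows of Mpo, Elane, Prtn3 or Camp. The PU.1 letters were present in Mpo (2 matches), Elane, Prtn3, Ltf, Lcn2 and Mmp8, against 23.4% of all windows. The 3 primary windows thus held the PU.1 letters without the C/EBP letters. Ngp and Retnlg held the reverse, and the window of Camp held neither. A match describes letters in a window and is not a bound site. The 2 motifs share no overlapping match in these windows.

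The files held 24041049 to 51920505 UMIs per library, with the lowest total in WT replicate 2 and the highest in URI. After filters on UMIs, genes, mitochondrial share and doublets, 7482 (GS), 8705 (URI), 8050 (WT replicate 1) and 7104 (WT replicate 2) cells were kept. No full barcode was shared between libraries, while 1480 to 2076 sequences of leading barcode bases were shared per pair of libraries. Whether libraries shared droplets was not tested. Neutrophils were the cells of 2 clusters in which at least 9 of 10 markers had a UMI in at least 20% of cells. The markers were S100a8, S100a9, Csf3r, Cxcr2, Ly6g, Il1r2, Trem1, Hdc, Clec4d and G0s2. Neutrophils numbered 629 in GS, 688 in URI, 645 in WT replicate 1 and 1067 in WT replicate 2, or 8.41%, 7.90%, 8.01% and 15.0% of kept cells. Their median depth was 4011 UMIs per cell in GS, 4479.5 in URI, 3790.0 in WT replicate 1 and 2728 in WT replicate 2. Levels below are in CPM, the UMIs of a gene per 1000000 UMIs summed over the named cells of 1 library, and each level is compared only with the same gene elsewhere.

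The larger neutrophil cluster was led by Il1b, Csf3r, Clec4d and Cxcr2. The smaller was led by Cd177, Ifitm6, Itgb2l and Chil3 and is called the Cd177-led cluster below. It held 10 of 629 neutrophils in GS, 125 of 688 in URI, 12 of 645 in WT replicate 1 and 21 of 1067 in WT replicate 2. These are shares of 1.59% (exact Clopper-Pearson 95% interval 0.765 to 2.90), 18.2% (15.4 to 21.3), 1.86% (0.965 to 3.23) and 1.97% (1.22 to 2.99), where intervals cover counting error only. Its cells had median depths of 6344 to 13523 UMIs, above the 2709.5 to 4135 of the larger cluster. Ly6g, a surface marker of neutrophils, had a UMI in at least 90.0% of its cells per library and in 21.9% to 30.7% of cells of the larger cluster. Per library, 0 or 1 of 6 basophil markers had a UMI in it, 0 or 1 of 8 macrophage markers and 0 or 1 of 5 eosinophil markers, with Mcpt8, Clec4f, Epx and Prg2 at 0 throughout. The 8 monocyte markers, which include Lyz2 and Ly6c2, summed to 7320.4, 4725, 7599 and 6527 CPM in it (5 to 7 detected, Ccr2 at 0 in 3 libraries), against 2808, 2524, 2946 and 3964 CPM in the larger cluster, and their part in the results was not tested. T markers summed to 347, 175, 81.5 and 172 CPM in the Cd177-led cluster, against 174, 103, 347 and 79.5 in the larger cluster. NK and ILC1 markers summed to 20.4, 39.0, 0 and 344 CPM, against 29.2, 12.5, 63.5 and 38.7. B markers summed to 40.8, 51.4, 0 and 22.5 CPM, against 45.7, 48.0, 138 and 61.6. The part of these lymphocyte lists was also not tested. The 10 members took no part in the clustering. Genes that vary with them did, so differences between the clusters are given as descriptions.

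The primary granule genes were nearly absent from liver neutrophils. Mpo, the peroxidase that makes hypochlorous acid, had 1 UMI in the 629 neutrophils of GS, 6 in URI, 0 in WT replicate 1 and 2 in WT replicate 2. Elane, neutrophil elastase, had 0, 6, 0 and 1 in the same order. Prtn3, proteinase 3, had 4, 11, 7 and 11, which is 1.48, 2.59, 2.57 and 3.54 CPM. No library stood clear of the others by more than a few UMIs. The 0 of 645 cells with Mpo in WT replicate 1 allows a level of up to 1.10 CPM by a floor of 3 counts.

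Nor did the Cd177-led cluster hold them. Mpo had 0 UMIs there in all 4 libraries, Elane had 3 and Prtn3 had 5 in URI, and both had 0 in the other 3 libraries. Prtn3 in URI was at 2.82 CPM there. With 10, 12 and 21 cells, the 0 counts in GS, WT replicate 1 and WT replicate 2 allow up to 30.6, 18.8 and 22.5 CPM by the floor of 3 counts.

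Most primary granule UMIs sat in other cells. Among all barcodes of at least 500 UMIs, 148 primary UMIs were counted in GS, 1464 in URI, 294 in WT replicate 1 and 249 in WT replicate 2. In URI, 7 cells with 10 or more such UMIs held 76.0% of them. In WT replicate 1, 1 cell held 244 of 294, or 83.0%. In GS, 1 such cell held 8.11%, and WT replicate 2 had none, so there the UMIs were spread over more cells. The URI cell with the most had 522 UMIs of Mpo, 189 of Elane and 66 of Prtn3 among 14633, together with 65 of Ctsg (cathepsin G, another primary granule protease), 13 of Cd34 and 4 of Kit, markers of blood progenitors. It had 0 UMIs of the 4 secondary genes. The cell of WT replicate 1 had 203 of Mpo, 1 of Elane and 40 of Prtn3, with 38 of Cd34, 6 of Kit and 0 of the secondary genes. Both, and 4 further URI cells with 10 to 177 primary UMIs, fell in an unnamed cluster led by Siglech, Smim5, Ccnd1 and Clec9a, genes known from dendritic cells.

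Cells with 2 or more primary UMIs numbered 29 in GS, 76 in URI, 10 in WT replicate 1 and 47 in WT replicate 2. Of these, 0, 3, 0 and 1 were neutrophils, and 4, 25, 0 and 2 had any secondary UMI. The plot of primary against secondary UMIs shows that each of the 9 cells with 10 or more primary UMIs had 0 or 1 secondary UMI. The URI cells with 3680 and 2581 secondary UMIs had 2 primary UMIs each.

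**Figure D1:**
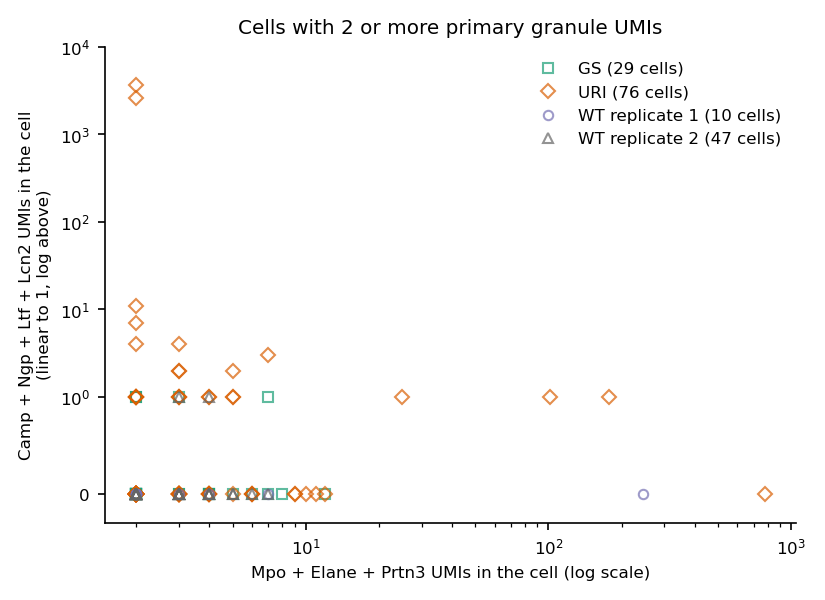
Each point is 1 cell with 2 or more UMIs of Mpo, Elane and Prtn3 (x axis, log scale) against its UMIs of Camp, Ngp, Ltf and Lcn2 (y axis, linear to 1 and log above), by library. The URI cell with 777 primary UMIs and the WT replicate 1 cell with 244 have 0 secondary UMIs.

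Outside that cluster the primary genes differed in where they lay. Among named classes, Mpo was highest in basophil-like cells of WT replicate 2, at 100.3 CPM from 16 UMIs in 6 of 43 cells, against 6.48, 23.8 and 6.61 CPM in those of GS, URI and WT replicate 1, which rest on 2, 12 and 2 UMIs. Mpo was at 14.9 (GS), 14.1 (URI), 0.987 (WT replicate 1) and 24.1 CPM (WT replicate 2) in B-like cells, against 0.989, 1.41, 0.0557 and 2.39 in T-like cells. In 1 B-like cluster, led by Rasgef1b and H2-Ab1, it was at 68.7, 61.4, 35.4 and 26.8 CPM with up to 9 UMIs in a cell. Free RNA, measured in barcodes under 100 UMIs, held Mpo at 1.39, 34.1, 4.53 and 6.70 CPM. In WT replicate 1 these values rest on 5 UMIs in 2 of 1658 B-like cells, 3 of them in 1 cell of that cluster. B-like cells were above T-like cells in the other 3 libraries, and B-like levels were below the free RNA level in URI and WT replicate 1. Prtn3 was at 9.93, 20.2, 21.7 and 22.5 CPM in monocyte-like cells, with a UMI in 8.04% to 11.4% of them, and at most 0.648 CPM in B-like and 0.439 CPM in T-like cells. Elane was highest, among named classes, in monocyte-like cells of URI at 3.11 CPM.

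The secondary granule genes marked the Cd177-led cluster. Camp, the cathelicidin antimicrobial peptide, was at 13377 CPM in GS, 13848 in URI, 23286 in WT replicate 1 and 11422 in WT replicate 2 in that cluster, and at 3.07, 30.7, 1.95 and 6.40 CPM in the larger cluster. The Cd177-led cluster was higher in 4 of 4 libraries. T-like cells, which are not known to make Camp, held 1.14, 9.45, 0.946 and 6.67 CPM, below the larger cluster in GS, URI and WT replicate 1 and slightly above it in WT replicate 2. The part of free RNA in these low levels was not tested. The Cd177-led cluster held 95.3%, 95.1%, 97.3% and 80.4% of each library's Camp UMIs while making up 0.134%, 1.44%, 0.149% and 0.296% of kept cells.

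Ltf, the iron-binding lactoferrin, behaved like Camp. It was at 17067, 17702, 20678 and 13465 CPM in the Cd177-led cluster and at 9.99, 43.2, 5.85 and 11.8 CPM in the larger cluster, in the order GS, URI, WT replicate 1 and WT replicate 2. Ngp, neutrophilic granule protein, was at 34471, 45488, 55482 and 30247 CPM in the Cd177-led cluster and at 205, 338, 189.8 and 174 CPM in the larger one. The lower levels of Ngp still exceeded those in T-like cells (3.59, 26.7, 1.45 and 14.6 CPM) in every library. Free RNA held Ngp at 183, 1922, 207 and 326 CPM, above the larger cluster in URI, WT replicate 1 and WT replicate 2. Its part in the lower levels of Ngp was not tested.

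Lcn2, lipocalin-2, which captures bacterial siderophores, was the exception among the secondary genes. It was at 17078, 14901, 28302 and 7013 CPM in the Cd177-led cluster, yet the larger cluster still held 1930.4, 1805, 1967 and 1092 CPM with a UMI in 68.3% to 81.8% of its cells. The Cd177-led cluster held only 21.8% (GS), 79.3% (URI), 43.7% (WT replicate 1) and 19.4% (WT replicate 2) of the Lcn2 UMIs of a library. T-like cells held 5.52, 13.6, 2.67 and 8.30 CPM of Lcn2, and free RNA 284, 851, 353 and 262 CPM.

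The late genes were present in both clusters. Mmp9, gelatinase B, was at 3585, 4153, 3535 and 3408 CPM in all neutrophils and had a UMI in 97.8% to 98.7% of them. Retnlg, a secreted resistin-like protein, was at 7560.0, 9723, 7553 and 7541 CPM with a UMI in 89.4% to 95.7%. Mmp8, neutrophil collagenase, was at 1157, 1718, 941 and 571 CPM with a UMI in 51.9% to 72.2%. For Mmp8 the Cd177-led cluster was higher than the larger cluster in 4 of 4 libraries (4415, 2994, 3216 and 2216 CPM against 1034, 805, 799.9 and 497). For Retnlg it was lower in GS (7147 against 7576 CPM) and higher in the other 3 (11307, 7599 and 10786 against 8590.5, 7550.3 and 7395).

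**Figure D2:**
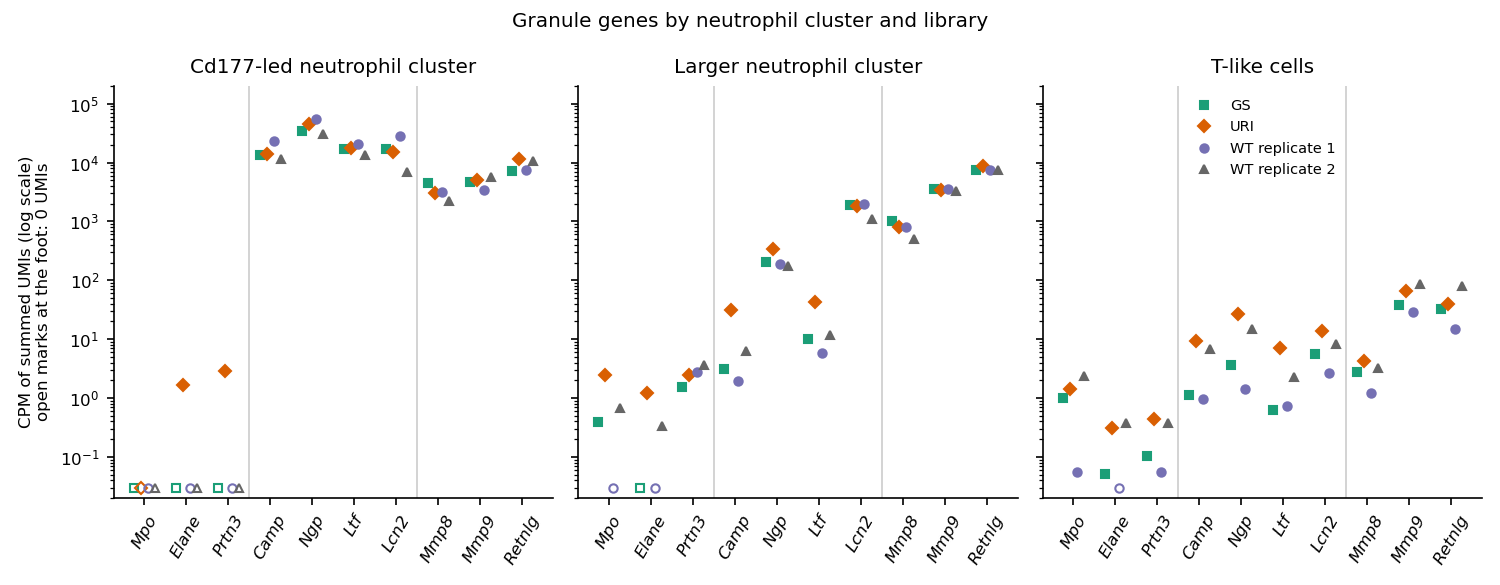
Level of the 10 granule genes in CPM (log axis) in the Cd177-led cluster, the larger neutrophil cluster and T-like cells, with 1 point per library. Camp, Ngp and Ltf separate the neutrophil clusters, Lcn2 and Mmp8 less so, and Mpo is at 0 in the Cd177-led cluster of all 4 libraries (open marks).

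Across named cell classes, neutrophils held the highest level of each secondary and late gene in every library. For Mmp8 the next were monocyte-like cells at 178 (GS), 134 (URI), 161 (WT replicate 1) and 79.6 CPM (WT replicate 2), with a UMI in 26.9% to 50.0% of cells, and T-, B- and NK-like cells lay at 1.06 to 5.31 CPM. For Mmp9, monocyte-like cells (53.3 to 93.9 CPM) and T-like cells (29.3 to 85.9 CPM) overlapped. For Retnlg, monocyte-like cells (70.3 to 183 CPM) were above T-like cells (15.0 to 79.8 CPM) within each library, and free RNA lay at 872 to 1659 CPM.

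Detection depends on depth, so each neutrophil was also thinned to 500 UMIs. Camp then had a UMI in 1.75% of GS neutrophils, 16.4% in URI, 1.71% in WT replicate 1 and 2.25% in WT replicate 2. Ngp gave 5.56%, 23.98%, 6.51% and 5.44%, Ltf 1.27%, 16.4%, 2.02% and 2.34%, and Lcn2 44.4%, 49.1%, 49.6% and 32.3%. Before thinning these had been 2.54%, 22.2%, 2.64% and 3.37% for Camp. Among thinned neutrophils, 44.4%, 47.7%, 49.5% and 33.9% had both a secondary and a late UMI, and 1.43%, 4.07%, 2.02% and 0.843% a secondary UMI without a late one. In the Cd177-led cluster at least 83.3% of thinned cells had both in each library. A secondary UMI without a late one was thus the rare case among neutrophils in all 4 libraries. The share with both rests largely on Lcn2, since Camp, Ngp or Ltf had a UMI in 6.04%, 24.9%, 6.67% and 6.37% of thinned neutrophils. In the Cd177-led cluster, 0%, 9.6%, 16.7% and 0% of thinned cells had a secondary UMI without a late one.

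Secondary genes were found in the same cells. In URI, thinned cells with both Camp and Ltf numbered 106 where 18.6 were expected if detection were independent, a ratio of 5.71. Camp and Ngp were together in 109 cells against 27.1 expected, a ratio of 4.02. In WT replicate 2, Camp and Ngp were together in 21 cells against 1.30 expected, a ratio of 16.1. Of 24 pairs of secondary genes over the 4 libraries, 17 had at least 1 expected cell and a ratio, and all 17 ratios were above 1. The pairs of late genes gave ratios of 1.00 to 1.27. Pairs share a library and a cell type, so these ratios describe the cells and are not tests.

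Within the Cd177-led cluster, cells differed in the balance of secondary and late genes. As a share of a cell's UMIs, Camp ranged from 0.0287% to 2.49% in GS (median 1.29%), from 0% to 4.38% in URI (1.29%), from 0.131% to 3.82% in WT replicate 1 (2.05%) and from 0.0709% to 3.18% in WT replicate 2 (0.865%). Retnlg ranged from 0% to 2.09%, 0% to 5.78%, 0.00403% to 4.26% and 0% to 4.25%. Cells high in Camp were low in Retnlg: Spearman's rho across cells was -0.84 in GS (10 cells), -0.75 in URI (125 cells), -0.91 in WT replicate 1 (12 cells) and -0.84 in WT replicate 2 (21 cells). Shares of 1 cell share its total. Camp and Ltf went the other way, with rho of 0.76, 0.76, 0.44 and 0.86, and so did Mmp9 and Retnlg with 0.75, 0.69, 0.83 and 0.52. The signs of these 3 pairs were the same in each library. Pairs of secondary genes with Mmp8 did not keep 1 sign: Lcn2 and Mmp8 had 0.14, -0.40, -0.14 and 0.24, and Ltf and Mmp8 had -0.32, -0.45, 0.02 and -0.15.

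**Figure D3:**
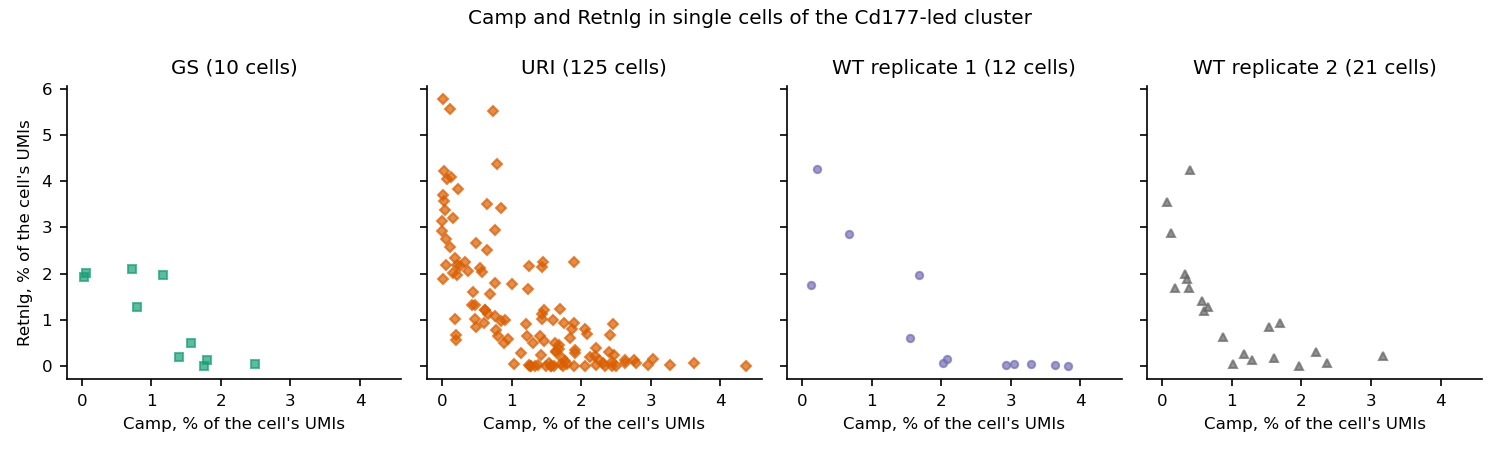
Camp against Retnlg, each as a percentage of a cell's UMIs, in the cells of the Cd177-led cluster of each library (10, 125, 12 and 21 cells). In all 4 panels the cells with the most Camp have little Retnlg.

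Position along maturation was scored with genes that are not members. The score of a neutrophil was the number of 20 late-list genes (such as Cxcr2, Il1r2 and Mxd1) with a UMI minus the number of 20 early-list genes (such as Chil3, Ifitm6 and Itgb2l) with a UMI, after thinning to 500 UMIs. Chil3, Ifitm6 and Itgb2l also led the Cd177-led cluster, and the lists were chosen with earlier results of these data known. A fall along the score and a difference between the clusters are therefore not separate results. Cells were cut at the quintiles of the pooled scores into 5 bins, with scores up to 6 in bin 1, 8 to 9 in bin 3 and 11 or above in bin 5. UMIs were summed per library and bin, and bins were compared with edgeR's quasi-likelihood test with the library as a block and Benjamini-Hochberg adjustment over all genes tested. A sum cannot tell fewer cells of a type from less RNA per cell. Between bins 5 and 1, 1475 of 5543 genes (26.6%) passed an adjusted p of 0.05, and 11.6% were lower in bin 5.

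All 4 secondary genes fell from bin 1 to bin 5. Camp was at 2058 CPM (GS), 10082 (URI), 3488 (WT replicate 1) and 1819 (WT replicate 2) in bin 1 and at 0, 10.97, 0 and 4.37 in bin 5, and the log2 change was -10.04 (SE 0.26, adjusted p = 2.1e-21), a fitted value that depends on the prior count where bin 5 holds 0. Ltf fell by 8.76 on the log2 scale (SE 0.38, adjusted p = 7.7e-16) and Ngp by 7.17 (SE 0.40, adjusted p = 2.0e-13). Lcn2 fell by 1.95 (SE 0.25, adjusted p = 2.9e-06), from 4653, 11526, 5898 and 2184 CPM to 1343, 1358, 2203 and 849 CPM. No value of bin 5 reached a value of bin 1 for Camp, Ltf or Ngp. For Lcn2 the bins overlap across libraries by a small margin, since bin 5 of WT replicate 1 is above bin 1 of WT replicate 2, while every library fell.

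Among the late genes, Mmp8 fell by 1.54 (SE 0.19, adjusted p = 2.1e-06), from 2025, 2548, 1228 and 963 CPM to 746, 522, 706 and 295 CPM. Retnlg fell by 0.75 (SE 0.15, adjusted p = 4.8e-04), a call lost with a first principal component score (-0.37, adjusted p = 0.051) and turned in direction with doublets kept (0.056, adjusted p = 0.82). Mmp9 had a log2 change of -0.22 (SE 0.13, adjusted p = 0.21), with 3849, 4809, 3388 and 4040 CPM in bin 1 and 3515, 3074, 3610.1 and 3021 CPM in bin 5, so WT replicate 1 lay slightly higher and the other 3 lower. No primary gene passed the filter on low counts. The same members had fallen between bins 1 and 3, where 1221 genes (22%) passed, among them all 4 secondary genes, Mmp8 and Retnlg, each of which fell, and 9.81% of genes were called lower. For Retnlg this change was 0.077 with doublets kept and 0.14 with the principal component score, neither past the threshold, and it also did not pass with 3 bins (-0.42) or with 2 low-UMI clusters added (-0.39). Between bins 5 and 3, 0 genes (0%) passed by edgeR, with 244 below 0.05 before adjustment, while DESeq2 called 12 (0.0947%).

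Bin 1 joined the few cells with the lowest scores to many of intermediate score. The same cells were therefore regrouped, after these values had been seen, into scores of 0 or below (8 cells in GS, 101 in URI, 12 in WT replicate 1 and 16 in WT replicate 2), 1 to 6, and 7 or above. Camp was at 14557, 15583, 22811 and 13109 CPM in the lowest range, at 70.7, 1638, 27.7 and 284 in the middle and at 1.94, 14.4, 1.81 and 3.98 in the highest. Each library fell in both steps. The first step was -6.30 (SE 0.61, adjusted p = 5.2e-09) and the second -5.94 (SE 0.72, adjusted p = 2.3e-05), beside 30.3% and 6.16% of 7625 genes called, 11% and 2.95% as lower. Ngp fell by 4.78 and then 3.76, and Ltf by 6.29 and then 5.14, all of these past the threshold.

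Lcn2 fell by 2.66 (SE 0.27, adjusted p = 8.6e-09) in the first step, and its second step of -0.62 (SE 0.25) did not pass (adjusted p = 0.16), although the level was lower in the highest range than in the middle in 4 of 4 libraries. Mmp8 fell in both, by 1.23 and by 0.90 (adjusted p = 2.8e-05 and 0.0081). Its levels were 4343, 2767, 3059 and 2236 CPM in the lowest range, 1657, 2212, 899.9 and 789 in the middle and 888, 599, 757 and 424 in the highest. Between the outer ranges, where 43.5% of genes passed and 18.7% were lower, the 4 secondary genes and Mmp8 fell. Mmp9 passed in neither step, with changes of -0.24 (SE 0.16, adjusted p = 0.27) and -0.07 (SE 0.16, adjusted p = 0.87).

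Retnlg was highest in the middle. It was at 5073, 8612, 5710.4 and 8578 CPM in the lowest range, 11049.5, 16973, 9038 and 9831 CPM in the middle and 6732, 6776, 6925 and 6741 CPM in the highest, a peak in 4 of 4 libraries. It rose by 0.70 (SE 0.19, adjusted p = 0.0055) and then fell by 0.62 (SE 0.19, adjusted p = 0.048). The rise did not pass without the GS library (0.54, adjusted p = 0.084), and the fall did not pass without GS (adjusted p = 0.14), URI (0.23) or WT replicate 2 (0.12).

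**Figure D4:**
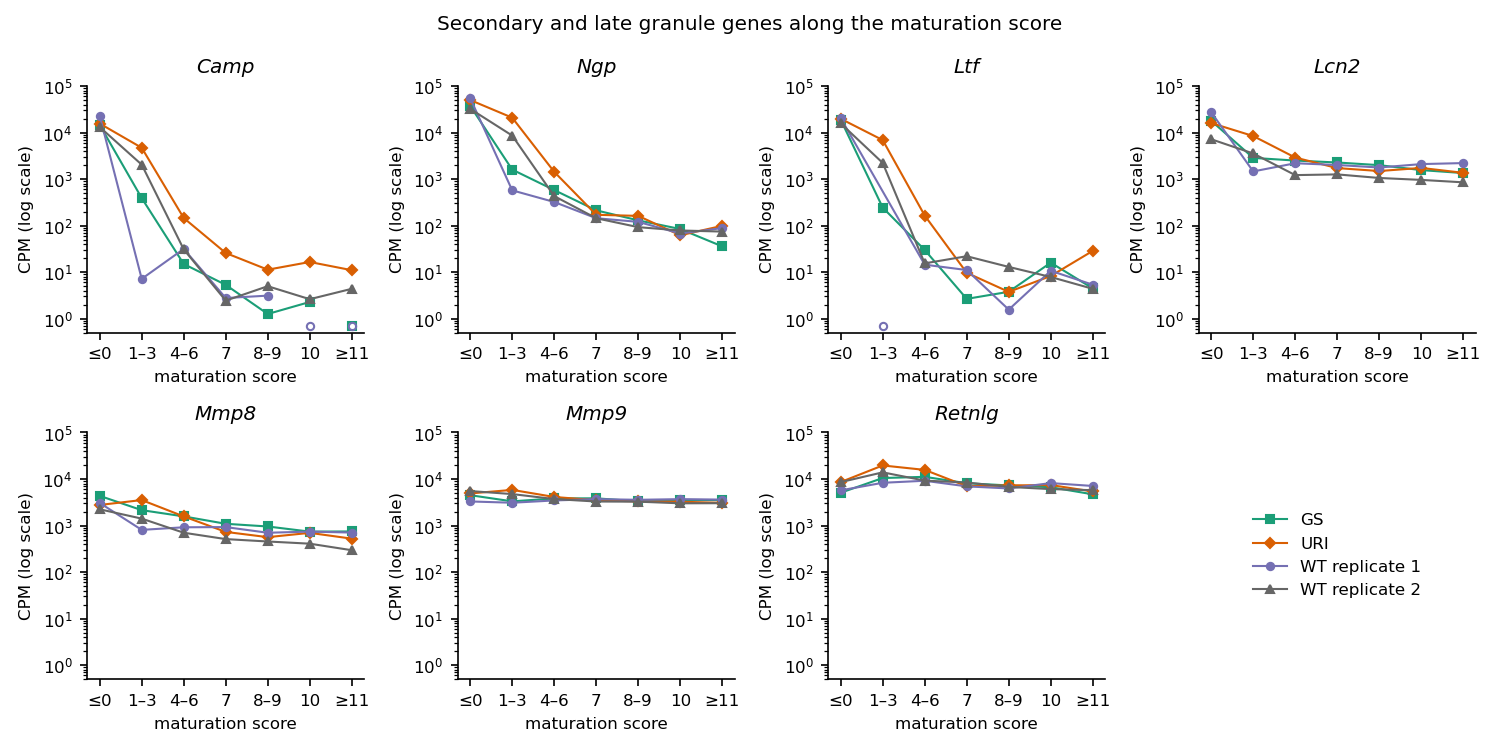
Level of the 7 secondary and late genes in CPM (log axis) along ranges of the maturation score, with 1 line per library. Camp, Ngp and Ltf drop over the low scores, Lcn2 and Mmp8 drop less, Mmp9 is nearly level and Retnlg is highest at scores between 1 and 6.

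The order of the members was summed up as the mean bin, weighted by the CPM in each bin. Camp was at 1.01 (GS), 1.01 (URI), 1.00 (WT replicate 1) and 1.02 (WT replicate 2), Ltf at 1.03, 1.01, 1.02 and 1.04, and Ngp at 1.14, 1.03, 1.10 and 1.16. Lcn2 followed at 2.38, 1.86, 2.48 and 2.53, then Mmp8 at 2.48, 2.19, 2.71 and 2.45, Retnlg at 2.66, 2.68, 2.96 and 2.72 and Mmp9 at 2.95, 2.79, 3.02 and 2.86. Every secondary gene had a lower mean bin than every late gene in 3 of 4 libraries. In WT replicate 2, Lcn2 and Mmp8 were exchanged. A mean bin shows where along the score a level was concentrated, not when a gene was first expressed. Mmp8 was itself highest in the lowest score range in every library, at 4343, 2767, 3059 and 2236 CPM. Camp and Ltf, which differ by at most 0.02 in a library, cannot be ordered.

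Other granule genes were followed from lists of the same granule classes, with the library-blocked test of bin 5 against bin 1, in which 26.6% of all genes were called, 15% as higher and 11.6% as lower. Of 19 other secondary granule genes, 17 were tested, 11 fell, 2 rose and 4 did not pass (median log2 change -0.94, against -0.01 over all genes). Cybb, a subunit of the NADPH oxidase, fell by 4.17 (SE 0.38, adjusted p = 1.6e-08), Orm1, an acute-phase glycoprotein, had -6.41 (SE 0.70), Cd177, a neutrophil surface protein, -2.81 (SE 0.35) and Wfdc21 -1.33 (SE 0.18), all 3 past the threshold. Of 10 other primary granule genes, 5 were tested, 2 fell, 1 rose and 2 did not pass. Srgn (serglycin, the proteoglycan core of granules) rose by 0.96, Nkg7 fell by 2.06, Clec12a fell by 0.54, and Cd63 had -0.53 (adjusted p = 0.11). At scores of 1 to 6, Nkg7 was at 45.3 (GS), 10.4 (URI), 115 (WT replicate 1) and 47.1 CPM (WT replicate 2). NK and ILC1 markers summed to 28.9, 23.5, 59.8 and 51.9 CPM in all neutrophils. The part of lymphocyte RNA in the fall of Nkg7 was not tested. Ctsg, Prss57, Ms4a3, Bpi and Cst7 were too low to test.

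Of 19 other gelatinase granule and secretory vesicle genes, 13 were tested, 5 rose, 2 fell and 6 did not pass (median 0.28), beside 15% of all genes higher and 11.6% lower. Cd14, the lipopolysaccharide co-receptor, rose by 1.36 and Slc11a1, a metal transporter of phagosomes, by 0.94, while Fpr2, a formyl peptide receptor, fell by 0.81 and Mmp25 by 1.02. Of 20 regulators of granulopoiesis, 16 were tested, 9 rose, 2 fell and 5 did not pass (median 0.49), beside the same shares. Cebpb rose by 1.00, Csf3r, the receptor of the growth factor G-CSF, rose by 0.99, and Cebpe, the C/EBP gene tied to secondary granules, fell by 2.58 (SE 0.35, adjusted p = 7.2e-06). Cebpe was at 557 CPM in cells scored 0 or below, 49.8 in those scored 1 to 6 and 28.9 in those scored 7 or above, as means over the 4 libraries. Lef1 fell by 2.62, and it is also a T cell gene. T cell markers, all 6 with UMIs, summed to 83.4 to 331 CPM in neutrophils, and their part in that change was not tested.

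The genes whose pattern was most like the mean of the secondary members, over 20 sums (4 libraries by 5 bins) of log2(CPM + 10) centred within each library and among 2893 eligible genes, were Cybb (Pearson's r 0.96), Cd177 (0.94), Ly6c2 (0.94), Syne1 (0.94) and Wfdc21 (0.93). For the late members they were Ckap4 (0.96), Lrrk2 (0.95), S100a8 (0.94), Wfdc21 (0.94) and Prdx5 (0.93). Those nearest to the primary members, Rab21, Cib1, Zfp384, Snx11 and Mfsd6, reached at most 0.64, and the primary mean rests on a few UMIs. Sums share libraries and depth, so r is a description.

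Immediate early and stress genes, which tissue digestion can induce, moved with the clusters. The 10 listed summed to 4677 to 10254 CPM in the Cd177-led cluster, with 7 to 10 of them detected per library. In the larger cluster they summed to 30302 to 34017 CPM, and in all neutrophils to 20668 to 32994 CPM. The Cd177-led cluster held 10, 125, 12 and 21 cells in GS, URI, WT replicate 1 and WT replicate 2. Of the 10 cycling genes, 0, 10, 6 and 2 were detected there, and they summed to 0, 320, 213 and 22.5 CPM. Counts of detected genes depend on the number of cells. Progenitor markers had 0, 4, 3 and 2 of 6 detected, with Cd34 and Flt3 at 0 in all 4. Their part in the levels of the members was not tested.

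Between genotypes, the secondary genes were higher in the URI neutrophils than in both WT libraries and the GS library. Summed over all neutrophils, Camp was at 489 CPM in GS, 5793 in URI, 1365 in WT replicate 1 and 498 in WT replicate 2. Ngp was at 1449, 19166, 3426 and 1468 CPM, Ltf at 629, 7407, 1216 and 591, and Lcn2 at 2480.3, 7266, 3508 and 1346. URI lay above every other library for these 4, and GS lay within or at the edge of the WT range. The GS and URI contrasts use the same WT libraries.

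For URI against WT the log2 differences were 2.61 for Camp (SE 0.57, adjusted p = 0.53), 2.94 for Ngp (SE 0.54, adjusted p = 0.42), 3.00 for Ltf (SE 0.49, adjusted p = 0.33) and 1.56 for Lcn2 (SE 0.56, adjusted p = 1.00). The late genes had 1.15 (Mmp8), 0.32 (Retnlg) and 0.21 (Mmp9). None passed by edgeR, which called 0 of 8872 genes (0%), with 359 at an unadjusted p under 0.05. DESeq2 called 17 genes (0.134%), all higher in URI, among them Camp (adjusted p = 0.0058), Ngp (1.6e-04) and Ltf (3.4e-05). With mice pooled and no label saying how the WT libraries were separated, p-values measure the spread between these samples, which may be technical. The edgeR spread rests on 2 WT libraries with 1 residual degree of freedom, and simulated 4-fold changes in this contrast were recovered for 59% of genes. Against WT replicate 1 alone the Camp difference was 2.09 and against WT replicate 2 alone 3.44.

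For GS against WT over all neutrophils the differences were -0.87 for Camp (SE 0.62), -0.70 for Ngp, -0.47 for Ltf, 0.09 for Lcn2, 0.66 for Mmp8, 0.08 for Mmp9 and 0.04 for Retnlg. None passed, with 0 of 8872 genes called (0%), 78 below 0.05 before adjustment and 0 called by DESeq2. Against WT replicate 2 alone the Camp difference was -0.01 and against WT replicate 1 alone -1.40. That of Lcn2 changed sign, with 0.90 and -0.41. Within the Cd177-led cluster alone, the median GS difference was -0.40 for the secondary members and -0.04 for other secondary granule genes. Within the larger cluster alone these medians were 0.20 and 0.27.

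The URI difference went with the share of the Cd177-led cluster, 18.2% of URI neutrophils against 1.59% to 1.97% elsewhere. Within that cluster alone the URI differences were -0.53 for Camp (SE 1.28), -0.10 for Ngp, -0.11 for Ltf and -0.51 for Lcn2, with 0 of 3059 genes called (0%) and 21 at an unadjusted p under 0.05. Their standard errors rest on the 2 WT libraries, where the secondary genes summed to 127748 and 62148 CPM in that cluster. Libraries other than URI held 10 to 21 such cells. Within the larger cluster alone the differences were 2.76 for Camp (SE 0.69), 2.20 for Ltf (SE 0.50), 0.84 for Ngp (SE 0.33) and 0.20 for Lcn2 (SE 0.44), with 0 of 8558 genes called (0%) and 59 at an unadjusted p under 0.05. Camp and Ltf were also higher in URI in T-like cells (9.45 and 6.99 CPM, against 0.946 to 6.67 and 0.624 to 2.26 in the others) and in free RNA (618 CPM of Camp, against 62.5, 89.1 and 132 in GS and the 2 WT libraries). The part of free RNA in the larger cluster's difference was not tested.

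**Figure D5:**
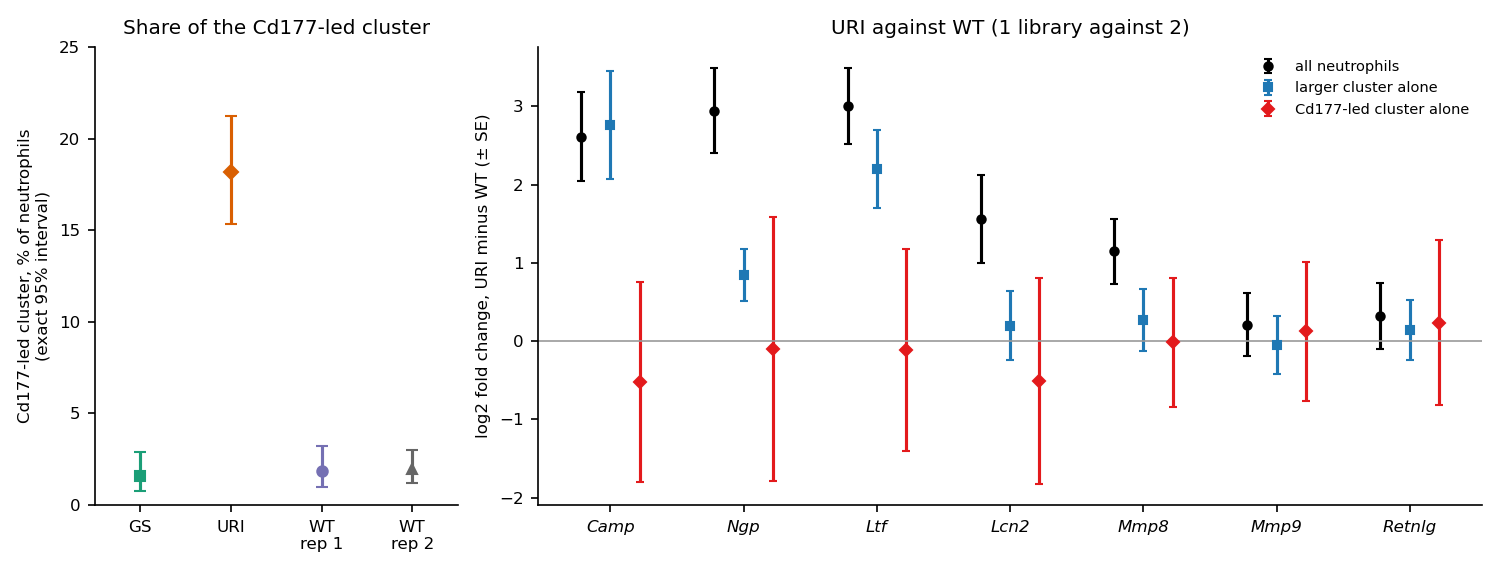
Left, share of neutrophils in the Cd177-led cluster with exact 95% intervals per library. Right, log2 difference of URI minus WT (± SE) for the secondary and late genes in all neutrophils, in the larger cluster alone and in the Cd177-led cluster alone, where the values of the last lie within 1 SE of 0.

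Summed over all neutrophils, cycling and progenitor markers were highest in URI. Cycling genes summed to 142 CPM in URI neutrophils (10 of 10 detected) against 8.88 in GS (7), 33.0 in WT replicate 1 (9) and 17.1 in WT replicate 2 (9). Progenitor markers summed to 37.2 CPM (5 of 6 detected, Flt3 at 0) against 5.55, 15.4 and 5.80. In the larger cluster alone neither list was highest in URI. Cycling genes were at 14.9 CPM there against 9.22, 21.8 and 16.8, and progenitor markers at 5.25 against 5.76, 10.1 and 5.05. In the Cd177-led cluster alone URI was highest for cycling genes, at 320 CPM against 0, 213 and 22.5. Its progenitor markers were at 81.9 CPM against 0, 100.3 and 22.5. Immediate early and stress genes summed to 20668 CPM in URI neutrophils, below the 29320 to 32994 of the others, and to 31619 CPM in the larger cluster of URI alone against 30302 to 34017. The part of these lists in the result was not tested. Monocyte markers summed to 3442 CPM in URI, within the 2972 to 4074 of the others. Pool, library and genotype cannot be told apart for URI and GS, and nothing in the labels says whether mice of 1 pool were littermates or processed on 1 day.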

How the data were processed

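Fixed cells were profiled with a probe-based 10x kit, multiplexed, in 4 libraries of 5 pooled mice each, per the labels' protocols. The deposited values are raw UMI counts per gene and barcode, from Cell Ranger 8.0.0 with mm10, per the submitters' processing notes. A probe count is not scaled by gene length.

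Barcodes with at least 500 UMIs, 250 genes and at most 10% mitochondrial UMIs were kept. Doublets scored by Scrublet were removed above 0.191, the median of the 4 automatic thresholds, because the automatic one marked no cell in WT replicate 1. This took out 4.30% to 5.08% of barcodes. Cells were clustered with scanpy 1.11.5 (2000 variable genes other than the members, 30 principal components, 15 neighbours, Leiden resolution 1.0, leidenalg 0.10.2). Summed UMIs were tested with edgeR 4.0.16 in R 4.3.3 (TMM, filterByExpr, quasi-likelihood, Benjamini-Hochberg, threshold 0.05), with DESeq2 1.42.0 as an alternative. A standard error is the absolute log2 change over the square root of F.

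In simulated counts the bin 5 against bin 1 test recovered 89% of 2-fold and 99% of 4-fold changes among 5543 genes, and the URI against WT test 5% and 59% among 8872.

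All 10 members were named. Other named genes were the 5 most correlated with each stage's mean, and the 4 of each granule list with the smallest adjusted p in bin 5 against bin 1. The members and lists were chosen with earlier results of these data known. The score ranges, the clusters taken alone and the addition of 2 low-UMI clusters were chosen after seeing the data. The promoter of Mmp9 was not analysed here.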

Additional observations from a re-analysis of the deposited data

How the results depend on the processing

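No paired analysis was possible because the genotype groups share fewer than 2 replicate numbers, while bins and score ranges were compared within libraries. Bin 3 against bin 1 called 1221 genes, and 2646 with doublets kept, 2330.0 with a first principal component score, 2049 with 2 low-UMI clusters added and 712 to 915 without 1 library. Bin 5 against bin 1 called 1475, and 3743, 2661, 2225 and 933 to 1170.0 under the same changes, with the lowest without URI. Bin 5 against bin 3 called 0, and 12 with DESeq2, 10 with no filter on low counts, 113 with doublets kept, 3 with the principal component and 36 with a log2 ratio score. URI against WT called 0 by edgeR and 17 by DESeq2. Without 1 library, scores 1 to 6 against 0 or below called 1486 to 2027 (2312 with all), 7 or above against 1 to 6 called 144 to 259 (470) and 7 or above against 0 or below called 2037 to 3044 (3320). Thinning cut the members found in most neutrophils of every library from 4 to 2. All secondary genes had lower mean bins than all late genes in 2 to 4 libraries under the other scores.

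Camp, Ngp and Ltf kept their fall from bin 1 in every alternative run. With doublets kept, bin 3 against bin 1 became 0.32 for Mmp9 and 0.077 for Retnlg, bin 5 against bin 1 became 0.46 and 0.056, Lcn2 between bins 5 and 3 became 0.017, and GS against WT became -0.22 for Lcn2, -0.20 for Mmp9 and -0.23 for Retnlg. With the principal component, Mmp9 became 0.10 (bin 3 against 1), -0.073 (5 against 3) and 0.030 (5 against 1), and Retnlg 0.14 (3 against 1). With the log2 ratio, Mmp9 between bins 5 and 3 became -0.36. Without 1 library, bin 5 against bin 3 ranged from -0.52 to 2.02 for Ltf, -0.32 to 0.025 for Lcn2 and -0.0093 to 0.046 for Mmp9. Scores of 7 or above against 1 to 6 ranged from -0.23 to 0.042 for Mmp9, and 7 or above against 0 or below from -0.090 to 0.12 for Retnlg. The cause of these moves was not tested. The low scores rest on 8 to 16 cells in GS and the WT libraries.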

Other observations

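Secondary granule RNA was also found in a pair of small clusters that stayed unnamed because of their low UMI counts. One, led by Cd177, Chil3 and Anxa1, held 84 cells of URI, 1 of WT replicate 1 and 1 of WT replicate 2, with a median of 1398 UMIs in URI. In the URI cells Camp was at 4497 CPM, Ngp at 16569.5, Ltf at 7459 and Lcn2 at 5582, beside Mmp8 at 501, Mmp9 at 1343 and Retnlg at 100.1 CPM, and Retnlg had a UMI in 11.9% of them. The other, led by Cstdc4, Wfdc21 and S100a8, held 72 cells of WT replicate 1 and 4 of GS. In WT replicate 1 Camp was at 622 CPM, Ngp at 3286, Ltf at 722 and Retnlg at 5477. Each cluster came almost wholly from 1 library, so library and cell state cannot be told apart there.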
